A study of Mus musculus with 4 samples.

Results

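ATP-binding cassette (ABC) genes encode proteins with a conserved domain that binds and hydrolyses ATP. In most of them that domain drives the passage of lipids, drugs, peptides, metals or conjugates across a membrane, while the Abce and Abcf proteins span no membrane and act on ribosomes. In stem cells the family is best known for Abcg2, the exporter behind dye exclusion by the so-called side population. The genes described here are the 30 whose symbol is made of Abc, a letter from a to g and a digit, as far as 5 supplementary tables of the study, held in part, pair that symbol with a probe of the arrays. They are 30 of the 25030 genes for which the authors deposited a processed value, and of the 5622 among these that the tables name. All 30 symbols are found in the RefSeq gene table of GRCm38.p6.

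RNA came from B6R(5) mouse embryonic stem (ES) cells, a male C57BL/6 line grown without feeders, as 1 culture for each of 4 conditions. The conditions were DMSO alone, the FGFR inhibitor PD173074, the MEK inhibitor PD98059 and the GSK inhibitor BIO. According to the Methods these were used at 100, 25 and 2 μM, and a supplementary list of samples prints the same numbers in mM. Compounds were added 24 hr after plating, cells were harvested 48 hr later, and every culture held 0.2% DMSO. On each array this RNA carried Cy3 and competed with a Cy5-labeled reference pooled from mouse cell lines, with no swap of dyes. For the organ arrays of the study, the Methods name a reference that mixes RNA of MC1 cells with Stratagene Universal Mouse Reference RNA. For the inhibitor cultures they refer back to that description. There was 1 array per condition, all on 1 slide, so no value below has a replicate check and no p-value is given. The inhibitor arrays were all compared with the same control array.

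Each array had 42034 probe spots. Over these the median Cy3 signal was 73.9 for the control and 79.1, 81.7 and 78.5 with FGFR, MEK and GSK inhibitor, above a median local background between 38 and 39.5. The scanner software flagged Cy3 as well above background on every array for 28 of the 30 ABC genes, and for 64.8% of the 25030 genes. The exceptions are Abca12, a lipid transporter of skin, which was well above background on the control array only, and Abca14, which was so on none. In Cy5, 27 ABC genes passed that flag on every array, and Abca12, Abca14 and Abcb1a did not.

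Levels are given as the log2 ratio of Cy3 to Cy5, that is of ES cell to reference RNA, after background correction and loess normalization. A log2 fold change is the difference of this ratio between an inhibitor array and the control. Beside it stands a robust SD, the spread of such differences over genes of similar Cy3 signal, in which true changes and error are mixed. A gene was called changed from 2-fold, a log2 fold change of 1, if both arrays had passed the Cy3 flag.

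With FGFR inhibitor 1 ABC gene, Abcb4, was called higher and 0 were called lower, among 28 measured, where 1.39% of all measured genes were called. With MEK inhibitor 0 were called, against 0.0832% of all genes, and with GSK inhibitor 0, against 1.43%. At 1.5-fold, 3 ABC genes changed with FGFR inhibitor (Abcb1a, Abcb1b and Abcb4, all higher), where the share of all genes was 5.70%. None changed by that much with MEK inhibitor, where the share was 1.05%. With GSK inhibitor 3 did (Abcb4 and Abcb6 higher, Abcg1 lower), where it was 6.54%. The members are too few for these counts to differ clearly from the background shares.

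Family medians were close to those of all genes. For FGFR, MEK and GSK inhibitor in turn, its median log2 fold change was -0.04, 0.02 and -0.04, beside -0.02, -0.01 and 0.00 over all 25030 genes. The sign of the first and last depended on the processing, with 0.08 from the processed signals for FGFR inhibitor (all genes -0.02) and 0.05 after median centring for GSK inhibitor (all genes 0.02). With MEK inhibitor median centring gave 0.15 (all genes 0.05). Single genes ranged from -0.49 to 1.17, from -0.28 to 0.28 and from -0.996 to 0.81 in these comparisons. The array with MEK inhibitor thus had the narrowest range, and no ABC gene on it lay beyond 2 robust SDs, compared with 5 on the array with FGFR inhibitor and 3 on that with GSK inhibitor. The corresponding shares of all measured genes were 7.81%, 10.7% and 9.03%. Beyond 1 robust SD lay 13, 11 and 13 ABC genes with MEK, FGFR and GSK inhibitor. Of all measured genes, 33.2%, 34.0% and 32.8% did so.

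**Figure D1:**
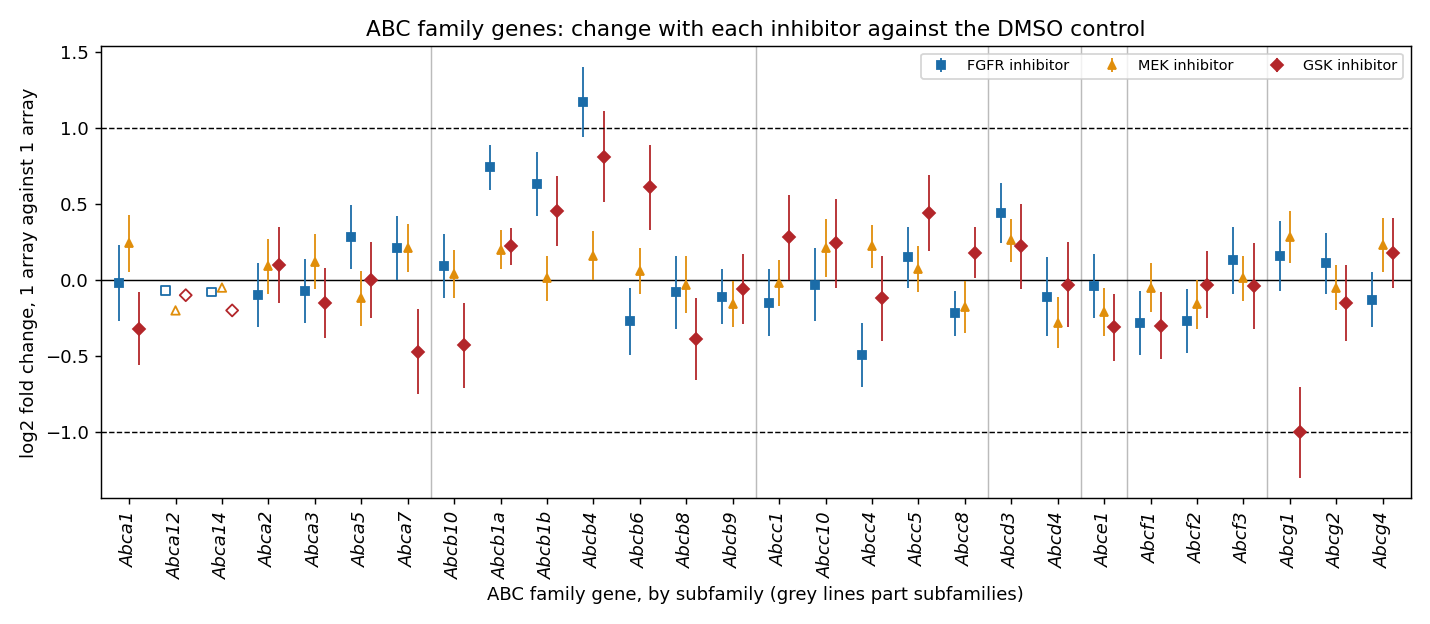
Log2 fold change of 28 of the 30 ABC genes with FGFR, MEK and GSK inhibitor against the DMSO control (vertical axis, log2 units, 1 array against 1 array), with genes ordered by subfamily on the horizontal axis. Bars are 1 robust SD of genes of similar signal, dashed lines mark 2-fold, and open symbols are genes with Cy3 not well above background on at least 1 of the arrays compared. Abcb4 with FGFR inhibitor, at 1.17, is above the upper line, and Abcg1 with GSK inhibitor, at -0.996, is at the lower one.

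The largest changes with FGFR inhibitor were in a group of neighbouring genes, though not in every setting. After median centring Abcd3, which is not in that group, was at 0.50 and Abcb1a at 0.49. Abcb1a, Abcb1b and Abcb4 follow each other on the chromosome with 0 protein-coding genes between them in GRCm38.p6. No other ABC genes described here are neighbours. Of 6 flanking protein-coding genes looked up, 0 had a probe named. Abcb4 encodes the flippase that delivers phosphatidylcholine to bile, and Abcb1a and Abcb1b are the rodent P-glycoproteins, which export a wide range of drugs. Abcb4 had a Cy3 signal of 471 in the control and of 1212, 624 and 781 with FGFR, MEK and GSK inhibitor, and a log2 ratio to reference of -1.97, -0.81, -1.82 and -1.16. The ratio was highest with FGFR inhibitor, next with GSK inhibitor, and close to the control with MEK inhibitor. Against the control it rose by a log2 fold change of 1.17 (robust SD 0.23) with FGFR inhibitor, or 2.24-fold, which ranked 82 from the top among 16794 genes. The value was 0.16 (robust SD 0.16) with MEK inhibitor and 0.81 (robust SD 0.30) with GSK inhibitor. The reference channel moved little, as Cy3 alone gave 1.17, 0.10 and 0.65 and Cy5 alone -0.03, -0.08 and -0.18.

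Abcb1b, the P-glycoprotein of adrenal and uterus, had a Cy3 signal of 78.9 on the control array and of 135, 91.1 and 103 with FGFR, MEK and GSK inhibitor. Its log2 ratio was -1.81, -1.18, -1.80 and -1.36 in the same order. The order of the arrays was that of Abcb4, with the FGFR inhibitor highest and the control and MEK inhibitor together at the bottom. Its log2 fold changes were 0.63 (robust SD 0.21), 0.01 (0.15) and 0.45 (0.23). The processed signals of the scanner software, which add no offset to dim spots, gave 1.28, 0.21 and 0.86, so the rise with FGFR inhibitor passed 2-fold in that setting.

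Abcb1a, the P-glycoprotein of the blood-brain barrier and intestine, was dim, with a Cy3 signal of 58.9 on the control array and of 95, 69.5 and 67.4 with FGFR, MEK and GSK inhibitor. Cy5 was not well above background on any array, and the ratio to reference of this probe therefore has no measured denominator. FGFR inhibitor again gave the highest signal, and the other arrays lay between 58.9 and 69.5 before background subtraction. Log2 fold changes were 0.59, 0.17 and 0.13 in Cy3 alone. The ratio gave 0.74 (robust SD 0.15), 0.20 (0.13) and 0.22 (0.12), and the processed signals 1.74, 1.00 and 1.42, both against an unmeasured reference. The counts that include Abcb1a rest on these ratios, and median centring lowered its value with FGFR inhibitor to 0.49, under 1.5-fold. The direction was the same under every setting tried, but the size of the change of this gene was not.

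A second probe of Abcb4 gave smaller values. The deposited table uses probe Z00076617-1, which gave the values above. A further probe that the tables pair with Abcb4, Z00026187-1, had a Cy3 signal of 60.7, 71.9, 66.9 and 62.8 on the control, FGFR, MEK and GSK inhibitor arrays, also well above background on all of them. Its log2 fold changes were 0.02, -0.03 and -0.08, all within the robust SD of 0.18, 0.17 and 0.17. In the processed signals this dim probe gave 0.56, 0.25 and -0.09, against 1.29, 0.21 and 0.90 for the main probe. A change of 2-fold was thus seen on 1 of the 2 probes only, and with FGFR inhibitor the other probe differed from the control by an amount that depended on the processing. Both sequences are shown because the value depends on the probe. Capitals mark the longest run that each shares with a probe of any other ABC gene, 9 bases with Abca5 for the former and 9 with Abca1 for the latter.
Abcb4 probe Z00076617-1: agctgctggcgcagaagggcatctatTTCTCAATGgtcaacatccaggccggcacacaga
Abcb4 probe Z00026187-1: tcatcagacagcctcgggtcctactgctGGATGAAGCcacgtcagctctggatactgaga
Both probes are 60 bases long with a GC content of 55%, and the longest run they have in common is 7 bases. Over all probes of the 30 genes, the longest run shared between probes of different genes was 10 bases. The probes of Abcb1a and Abcb1b had a low GC content, 30% and 21.7%, with the latter the lowest of all main probes, which reached 55%.

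Promoters are shown for these 3 neighbours because all of them passed 1.5-fold with FGFR inhibitor, Abcb1a not in every setting. RefSeq promoter windows of 300 bases, build GRCm38.p6, were found for 22 of the 30 genes, as 28 windows. The neighbours, and then the motifs, were looked up after the values had been seen. Searched on both strands were the TATA box TATAAA, the CCAAT box CCAAT, the GC box GGGCGG, the E-box CACGTG, the AP-1 motif TGACTCA, the ETS motif CCGGAAG, the TCF/LEF motif CTTTGAT and the LXR/RXR repeat, which is AGGTCA given again after any 4 bases. No motif contains another. Capitals mark the matches.
Abcb1a promoter, chr5:8566841-8567140, plus strand: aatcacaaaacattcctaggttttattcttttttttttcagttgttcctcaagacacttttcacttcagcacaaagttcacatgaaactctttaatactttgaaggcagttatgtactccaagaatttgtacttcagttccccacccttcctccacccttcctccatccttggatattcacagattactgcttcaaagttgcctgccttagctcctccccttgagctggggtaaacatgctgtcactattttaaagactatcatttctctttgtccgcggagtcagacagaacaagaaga
Abcb1b promoter, chr5:8797897-8798196, plus strand: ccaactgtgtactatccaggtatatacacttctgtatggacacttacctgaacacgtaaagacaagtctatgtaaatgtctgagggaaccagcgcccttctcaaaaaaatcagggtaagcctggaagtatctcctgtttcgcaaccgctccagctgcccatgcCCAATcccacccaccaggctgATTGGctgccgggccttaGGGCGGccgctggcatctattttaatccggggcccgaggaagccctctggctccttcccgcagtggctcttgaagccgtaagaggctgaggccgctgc
Abcb4 promoter, chr5:8893471-8893770, plus strand: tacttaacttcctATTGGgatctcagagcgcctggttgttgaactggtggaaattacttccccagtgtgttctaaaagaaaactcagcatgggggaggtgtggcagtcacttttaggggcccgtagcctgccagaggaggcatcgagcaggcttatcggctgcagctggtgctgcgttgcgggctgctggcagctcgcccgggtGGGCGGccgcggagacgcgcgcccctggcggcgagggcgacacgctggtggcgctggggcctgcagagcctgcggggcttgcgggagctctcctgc
The promoters of Abcb1b and Abcb4 both hold the CCAAT box, found in 37.4% of all 32851 promoters of that table, and the GC box, found in 35.7%. Among the 28 windows of ABC genes, 9 held the CCAAT box and 18 the GC box. The promoter of Abcb1a holds none of the 8 motifs. In base composition they differ, with a GC content of 40.3% for Abcb1a, 55% for Abcb1b and 64% for Abcb4, beside a median of 52.7% over all promoters. The number of CG pairs was 2, 12 and 21. The longest run in common was 9 bases for Abcb1a and Abcb1b, 8 for Abcb1a and Abcb4 and 10 for Abcb1b and Abcb4. No such runs were measured for unrelated promoters. Of the other motifs, the ETS motif was in 4 of the 28 windows (Abcb9, Abcc10, Abcc4 and Abcf1) and in 8.86% of all promoters. TCF/LEF, AP-1 and the LXR/RXR repeat were in 0 windows of ABC genes, and 3.73%, 5.2% and 0.0152% of all promoters held them.

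Of the 8 lipid transporters measured on every array, 4, 7 and 3 had values above 0 for FGFR, MEK and GSK inhibitor. Over all 25030 genes, with no filter on background, 46.1%, 47.0% and 49.7% were above 0. These counts of lipid transporters depended on the processing. With FGFR inhibitor the signs of Abca1 and Abca3 did so, with MEK inhibitor that of Abca5. With GSK inhibitor those of Abca3 and Abca5 did so. Abcg1, which moves cholesterol to HDL particles, had a Cy3 signal of 641 on the control array and of 846, 988 and 379 with FGFR, MEK and GSK inhibitor. Its log2 ratio to reference was -1.09, -0.93, -0.81 and -2.08. The arrays with control, FGFR and MEK inhibitor were close together and that with GSK inhibitor was far below them. With GSK inhibitor the log2 fold change was -0.996 (robust SD 0.30), just short of 2-fold, and it ranked 124 from the bottom among 16465 genes. With FGFR and MEK inhibitor it was 0.16 (0.23) and 0.28 (0.17). Cy3 alone gave -0.82 with GSK inhibitor and the processed signals -1.05.

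Abca1, which loads cholesterol and phospholipid onto apolipoprotein A-I, was low relative to the reference on all arrays, at a log2 ratio of -3.40 in the control and -3.42, -3.16 and -3.72 with FGFR, MEK and GSK inhibitor. Its Cy3 signals were 160, 190, 254 and 136. The highest array was that with MEK inhibitor and the lowest that with GSK inhibitor, as for Abcg1. Its log2 fold changes were -0.02 (robust SD 0.25), 0.24 (0.19) and -0.32 (0.24). The sign of the first depended on the processing, while the others kept theirs. The promoter of Abca1 holds a TATA box, an E-box and the GC box. Those motifs were found in 13.6%, 7.15% and 35.7% of all promoters.

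Abca7, a close relative of Abca1 linked to phagocytosis and lipid efflux, had a Cy3 signal of 1711 in the control and of 2376, 2599 and 1464 with FGFR, MEK and GSK inhibitor. Its log2 fold change was 0.21 (robust SD 0.21), 0.21 (0.16) and -0.47 (0.28). Again GSK inhibitor gave the lowest array. Abca1, Abca7 and Abcg1 thus had values below 0 with GSK inhibitor and above 0 with MEK inhibitor under every setting tried, and each lay beyond 1 robust SD in both comparisons. These 3 genes were picked with their values in view, and the share of all genes with the same pattern was not measured.

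On their main probes, lipid transporters not yet named were not called at 1.5-fold. Abca2, found in lysosomes of neural cells, had log2 fold changes of -0.10, 0.09 and 0.10 with FGFR, MEK and GSK inhibitor. Abca3, which loads surfactant lipid into lamellar bodies, had -0.07, 0.12 and -0.15, and Abcg4, a relative of Abcg1 in brain, had -0.13, 0.23 (robust SD 0.18) and 0.18. In the processed signals the value of Abcg4 with MEK inhibitor was 0.62, over 1.5-fold. Abca5, a lysosomal protein, had 0.28 (robust SD 0.21), -0.12 and 0.00. A further probe of Abca5, Z00062491-1, gave 0.11, -0.04 and 0.06. With FGFR inhibitor the processed signals gave 0.55 for the main probe of Abca5 and 0.65 for this one, the latter over 1.5-fold. Another, Z00023860-1, was well above background with FGFR and MEK inhibitor only, and no fold is given for it. Abca12 had a Cy3 signal of 57.6 on the control array and of 52.1, 53.9 and 54.7 on the others, and Abca14 had Cy3 signals between 46.8 and 51.5. No fold is given in the text for either. Abca14 was well above background on no array, and a bound computed for Abca12 was larger than the fold of its ratio.

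Of the exporters of drugs and conjugates, Abcg2 had a Cy3 signal of 6088 in the control and of 7063, 6910 and 5287 with FGFR, MEK and GSK inhibitor. Its log2 ratio was 1.05, 1.16, 1.00 and 0.90, above the reference on every array, with dye bias of the probe not tested. The order of the arrays spanned little more than the robust SD. The log2 fold change was 0.11 (robust SD 0.20), -0.05 (0.15) and -0.15 (0.25), each within its spread. The promoter windows of Abcg2 include matches to the TATA box, the CCAAT box and the GC box.

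Abcc4, which exports cyclic nucleotides and prostaglandins, had the lowest value of the family with FGFR inhibitor, except that Abcc8 was lower in the processed signals and also in the deposited table. Its Cy3 signal was 2203 in the control and 1804, 3065 and 2272 with FGFR, MEK and GSK inhibitor, and its log2 ratio was 0.69, 0.20, 0.91 and 0.58. The array with FGFR inhibitor was the lowest and that with MEK inhibitor the highest. Log2 fold changes were -0.49 (robust SD 0.21), 0.22 (0.14) and -0.12 (0.28), and the first lay between -0.50 and -0.42 over the alternatives. The values with FGFR and MEK inhibitor were thus on opposite sides of 0, each by more than 1 robust SD. They share the control array.

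Abcc1, which exports glutathione conjugates and leukotriene C, had Cy3 signals of 1255 in the control and 1276, 1484 and 1557 with FGFR, MEK and GSK inhibitor. Its log2 ratio was -1.01, -1.16, -1.03 and -0.73. The array with GSK inhibitor was the highest, at a log2 fold change of 0.28 (robust SD 0.28), and the values with FGFR and MEK inhibitor were -0.15 and -0.02. Abcc5, an exporter of cyclic nucleotides and of heme, was also highest with GSK inhibitor, with 0.44 (robust SD 0.25), and had 0.15 and 0.07 with FGFR and MEK inhibitor. For Abcc10, a broad drug exporter, the log2 fold changes were -0.03, 0.21 and 0.24.

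The mitochondrial members differed from each other with GSK inhibitor. Abcb6, a porphyrin transporter, had a Cy3 signal of 1252 in the control and of 1197, 1610 and 1998 with FGFR, MEK and GSK inhibitor, and a log2 ratio of -1.18, -1.45, -1.12 and -0.57. GSK inhibitor gave the highest array and FGFR inhibitor the lowest. Its log2 fold changes were -0.27 (robust SD 0.22), 0.06 (0.15) and 0.61 (0.28), the last a 1.52-fold change. In Cy3 alone it was 0.58, just under 1.5-fold. Abcb10, which serves heme synthesis in the inner membrane, had 0.09, 0.04 and -0.43 (robust SD 0.28), and Abcb8, part of a potassium channel of that membrane, had -0.08, -0.03 and -0.39 (robust SD 0.27). With GSK inhibitor Abcb6 was thus on the other side of 0 from Abcb10 and Abcb8, and this held under every setting tried.

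Abcb10 had a further probe, Z00056397-1, with log2 fold changes of -0.07, -0.08 and -0.36. In log2 fold change with GSK inhibitor both probes were thus below 0 by more than 1 robust SD. Their levels differed. On the control, FGFR, MEK and GSK inhibitor arrays the log2 ratio was -0.78, -0.69, -0.74 and -1.20 for the main probe. It was 1.02, 0.95, 0.94 and 0.66 for the further probe. Whether Abcb10 was above or below the reference thus depended on the probe, and the cause was not tested.

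In the peroxisome, Abcd3, which imports branched and dicarboxylic acyl-CoA, had a Cy3 signal of 2127 in the control and of 3467, 3219 and 2623 with FGFR, MEK and GSK inhibitor. Log2 fold changes were 0.44 (robust SD 0.20), 0.26 (0.14) and 0.22 (0.28). All inhibitor arrays were above the control, which they share. The log2 ratio of Abcd3 was -1.84 in the control and -1.40, -1.58 and -1.62 with FGFR, MEK and GSK inhibitor. The array with FGFR inhibitor was the highest and the control the lowest.

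Of the lysosomal members, Abcd4 is needed for release of cobalamin from lysosomes. It had the lowest value of the family with MEK inhibitor, though Abcc8 was lower in 5 of the 7 alternatives. The Cy3 signal of Abcd4 was 813 in the control and 975, 921 and 905 with FGFR, MEK and GSK inhibitor. Its log2 ratio was -0.02, -0.14, -0.30 and -0.05. The array with MEK inhibitor was the lowest, though in raw signal the control was. The log2 fold change was -0.11 (robust SD 0.26), -0.28 (0.17) and -0.03 (0.28). Abcb9, a peptide transporter, had log2 ratios between -4.43 and -4.27 and log2 fold changes of -0.11, -0.16 and -0.06. The sign of each depended on the processing, with 0.14 and 0.22 in the processed signals for FGFR and MEK inhibitor and 0.04 in Cy3 alone for GSK inhibitor. Processed log2 ratios of Abcb9 lay between -5.57 and -5.26.

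Abcc8 encodes the sulfonylurea receptor, which regulates the ATP-sensitive potassium channel of beta cells and neurons. It was dim, with Cy3 signals between 66.5 and 79.0, and had log2 fold changes of -0.22 (robust SD 0.15), -0.18 (0.17) and 0.18 (0.17). In the processed signals these were -0.87, -0.38 and 0.55, so the size depended on the processing. Its further probe Z00039558-1 gave 0.06, 0.06 and -0.02, and 0.19, 0.40 and 0.24 in the processed signals. Another probe, Z00056238-1, was well above background on the array with GSK inhibitor only, and no fold is given for it.

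The members that act on ribosomes were above the reference on every array. Abce1, which splits ribosomes after termination, had a Cy3 signal of 16743 in the control and of 20454, 19022 and 15765 with FGFR, MEK and GSK inhibitor. Its log2 ratio was 1.27, 1.22, 1.06 and 0.96. The control array was the highest and that with GSK inhibitor the lowest. The log2 fold change was -0.04 (robust SD 0.21), -0.21 (0.16) and -0.31 (0.22). Abcf1, a partner of initiation factor eIF2, had log2 ratios of 2.15, 1.87, 2.10 and 1.84 and log2 fold changes of -0.28 (robust SD 0.21), -0.05 and -0.30 (0.22). Abcf2 had log2 fold changes of -0.27 (robust SD 0.21), -0.16 and -0.03, and Abcf3 of 0.13, 0.01 and -0.04. Of these 4 genes, 4 had values below 0 with GSK inhibitor and 3 with each of FGFR and MEK inhibitor, none beyond 2 robust SDs. Over all 25030 genes, with no filter on background, 46.1%, 47.0% and 49.7% were above 0 with FGFR, MEK and GSK inhibitor. The signs of Abcf2 and Abcf3 with GSK inhibitor, of Abce1 with FGFR inhibitor and of Abcf1 with MEK inhibitor depended on the processing.

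By subfamily, medians of the log2 fold change with FGFR, MEK and GSK inhibitor were -0.15, 0.07 and 0.24 for the 5 Abcc genes. They were -0.27, -0.05 and -0.04 for the 3 Abcf genes, and 0.11, 0.23 and -0.15 for the 3 Abcg genes. The largest in size, that of Abcf with FGFR inhibitor, rests on Abcf1 and Abcf2. Abce has 1 member. No median is given for the 7 Abca, 8 Abcb and 3 Abcd genes, and 2 of the 30 genes enter the counts and family medians only.

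**Figure D2:**
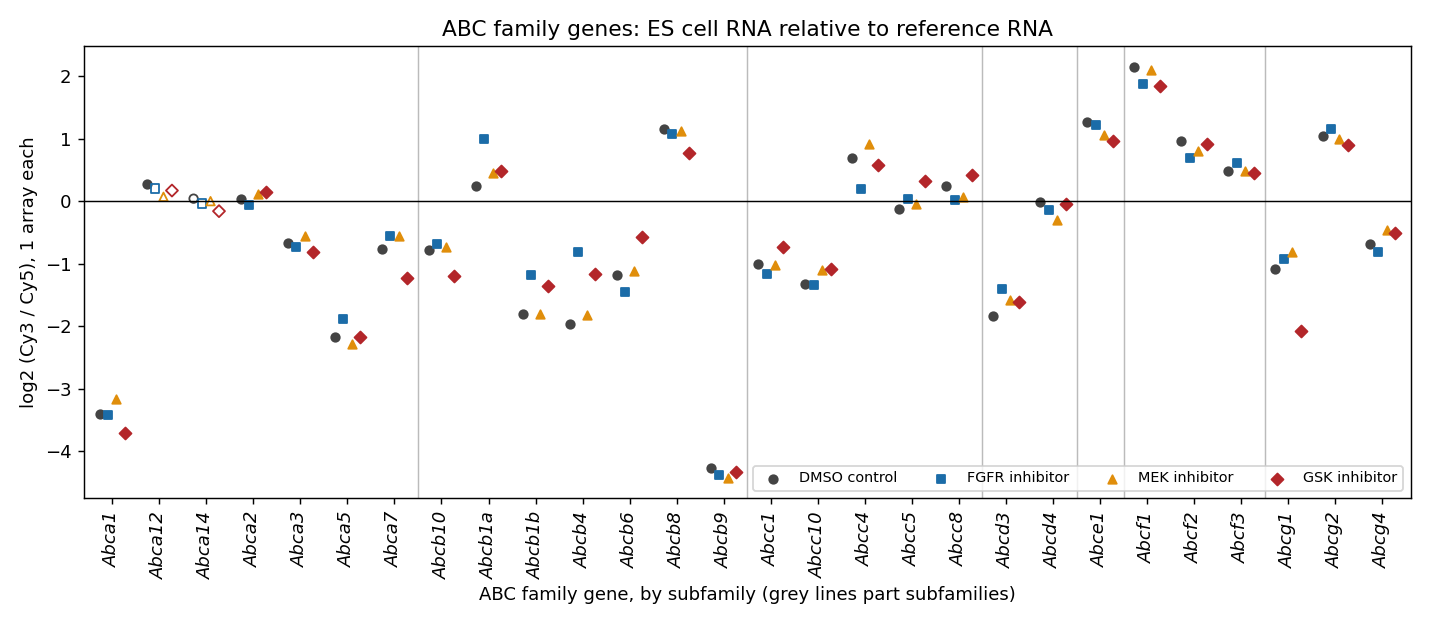
Log2 ratio of ES cell RNA (Cy3) to reference RNA (Cy5) of 28 of the 30 ABC genes on the 4 arrays (vertical axis, log2 units), with genes ordered by subfamily on the horizontal axis. Each gene is shown on its main probe only. Filled symbols are arrays with Cy3 well above background, open symbols those without. For Abcb4 the array with FGFR inhibitor is highest, at -0.81, and for Abcg1 that with GSK inhibitor is lowest, at -2.08.

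Few regulators and partners of the family could be named, 4 of 27, which is under the 80% set for a list, so only values are given. Rxrg, which pairs with the lipid sensors that control Abca1 and Abcg1, had a Cy3 signal of 407 in the control and of 62.9, 185 and 122 with FGFR, MEK and GSK inhibitor. Its log2 fold change was -3.22, -1.26 and -2.13, and -4.64, -0.51 and -2.63 in the processed signals. With MEK inhibitor the Cy5 signal of Rxrg did not pass the flag. Its part in the values of Abca1 and Abcg1 was not tested. Nr1i3, a drug sensor, had 0.12, 0.13 and 0.04, and Ahr, the aryl hydrocarbon receptor, 0.32 (robust SD 0.24), 0.01 and -0.01. For Nr1i3, Cy3 alone gave -0.15, -0.12 and -0.11 and Cy5 alone -0.43, -0.43 and -0.25, so its sign depended on the processing. The ABC genes without an Abc symbol, Tap1, Tap2 and Cftr, were not analysed here.

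ES cell identity could be checked on 2 of 15 markers. Tcfcp2l1, a factor of naive pluripotency, had log2 ratios of 2.97, 3.39, 3.37 and 3.38 on the control, FGFR, MEK and GSK inhibitor arrays, and Prdm14, another, 2.20, 2.80, 2.29 and 2.04. Both were above the reference on every array. Log2 fold changes were 0.42, 0.40 and 0.41 for Tcfcp2l1 and 0.60, 0.10 and -0.16 for Prdm14. Of these, the values of both genes with FGFR inhibitor and that of Tcfcp2l1 with MEK inhibitor lay beyond 2 robust SDs. Cy3 alone gave 0.76, 0.76 and 1.1 for Tcfcp2l1, whose Cy5 signal moved by 0.29, 0.33 and 0.67. For Prdm14 with MEK inhibitor the processed signals gave -0.07. The named markers of other cells were Col3a1, Col5a2 and Sox17. The fibroblast gene Col3a1 was far below the reference, with log2 ratios between -7.44 and -7.19. Col5a2, also of fibroblasts, was not well above background in Cy3 on any array, so no ratio is given for it. Its Cy5 signals were between 753 and 861. Sox17, an endoderm factor, was above the reference too, with Cy3 signals of 194, 181, 229 and 168, log2 ratios of 2.10, 1.93, 2.21 and 1.73 and log2 fold changes of -0.17, 0.11 and -0.37. Processed signals gave -0.57, -0.19 and -0.65 for Sox17, so its sign with MEK inhibitor depended on the processing. The part of these markers in the values of the ABC genes was not tested. In these bulk cultures, fewer cells that express a gene and less RNA per cell cannot be told apart.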

How the data were processed

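Per the file headers, the authors deposited scanner output of Agilent Feature Extraction 9.5.1.1, in which spot signals are intensity. They also deposited log10 values for 25030 probes, with a median of 2.25 or 2.26 per array. Mean intensity was background-corrected in limma 3.58.1 (R 4.3.3) with normexp, using an offset of 50. Control spots and 3 or 4 outlier spots per array were left out, loess was run within arrays, and spots of a probe were averaged. Robust SDs come from median absolute deviations in 20 groups of Cy3 signal, from Python 3.11.15 (numpy 2.4.6, pandas 2.3.3). The steps were tested on simulated data.

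Each gene was read on the probe that the supplementary table with these arrays gives, and otherwise on that of the other tables. Values on every array are given for members changed 1.5-fold, the largest rise and fall per comparison, and Abca1, Abcg1, Abcb1a, Abcb1b, Abcc1, Abcg2 and Abce1. Those of Abca7 and Abcd3 were added after seeing the data. Members and lists were chosen with earlier results of these data known. Figures were drawn with matplotlib 3.10.9. With 1 array per group, differences between cultures cannot be told apart from effects of the inhibitors. Dye bias of a probe remains in its ratio to reference, and probes are unmapped in the files.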

Additional observations from a re-analysis of the deposited data

How the results depend on the processing

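No paired analysis was possible because there was only 1 array for every condition, and no array was left out. The count of ABC genes changed at least 2-fold with FGFR inhibitor, 1 as reported, became 2 at an offset of 16, 3 from the processed signals, 3 from the deposited table, 3 at 1.5-fold and 0 at 4-fold. With MEK inhibitor, 0 as reported, it became 1 from the processed signals, where Abcb1a was at the threshold, and was 0 from the deposited table. With GSK inhibitor, 0 as reported, it became 1 at an offset of 16, 2 from the processed signals, 2 from the deposited table and 3 at 1.5-fold. The shares of all genes called rose too. For FGFR inhibitor they were 1.39% as reported, 1.89% at an offset of 16 and 4.31% from either the processed signals or the deposited table. For MEK inhibitor they were 0.0832%, and 1.54% from the processed signals. For GSK inhibitor they were 1.43%, 2.00% at an offset of 16, 4.65% from the processed signals and 4.66% from the deposited table. The processed signals added Abcb1a and Abcb1b for FGFR inhibitor, Abcb1a for MEK inhibitor, and Abcb1a and Abcg1 for GSK inhibitor. A smaller offset shrinks dim signals less by construction, and the cause of the other shifts was not tested. Dropping the background filter, applying it to Cy5 too, no background subtraction, median centring and Cy3 alone left these counts as they were. Aquantile cannot change a ratio, by construction. For FGFR inhibitor the family median lay between -0.04 and 0.08, for MEK inhibitor between 0.02 and 0.15, and for GSK inhibitor between -0.04 and 0.05. Of the 28 measured members, 19, 20 and 20 kept 1 sign under all 7 processing settings for FGFR, MEK and GSK inhibitor. Of these settings Aquantile could not differ, and the deposited table is built from the processed signals. Members that changed sign had reported log2 fold changes between -0.16 and 0.09. The further probe of Abcb4 gave 0.02 with FGFR inhibitor, and 0.56 in the processed signals, and the cause was not tested.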
